A study of Homo sapiens with 8 samples.

Results

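The genes examined here encode extracellular matrix proteins that are neither laminins nor collagens, and they comprise the matricellular genes SPARC, TNC, THBS1 and THBS2, the elastic fibre genes FBN1 and EFEMP1, and the proteoglycan and basement membrane genes VCAN, NID1, HSPG2 and AGRN. These 10 genes were taken by name from the 58051 genes counted in every library, and all 10 had enough reads to be tested. RNA was sequenced from 4 lines, WT1 to WT4, each described as grown from a single cell of A375, an established human melanoma cell line. Every line was cultured for 12 h in DMEM with 10% fetal bovine serum (FBS) or in DMEM without serum, which gave 4 libraries with serum and 4 without, 1 per line and condition. The study looked for secreted factors that could account for the adherens junctions that form between these cells when serum is removed. Labels call all lines WT without naming a gene, and the design text states that all were cloned from A375. The deposited data of WT4 carry another line name, so its identity rests on the labels. With 1 library per line and condition, a clone and the day or batch in which it was grown cannot be told apart.

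Matricellular proteins are secreted into the matrix but act mainly on how cells attach, spread and respond to growth factors. Fibrillin microfibrils scaffold elastic fibres and hold latent TGF-beta, whereas basement membranes are sheets in which nidogen, perlecan and agrin tie laminin and type IV collagen networks together and bind growth factors through heparan sulfate chains. In melanoma, SPARC and tenascin-C have long been studied as products of invasive cells, and thrombospondin-1 is a classical serum-responsive and YAP-responsive gene.

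Counts assigned to genes ranged from 29759279 to 67101005 per library with serum and from 37847737 to 73341551 without. The share of multimapped reads was 22.7% and 16.8% in the serum libraries of WT1 and WT2 and 5.73% to 10.1% in the other 6. Summed markers of the melanoma and melanocyte lineage reached 583 to 888 counts per library scaled to its size (CPM) with serum and 402 to 834 CPM without. They were led by AXL (309 to 656 CPM), NGFR (24.1 to 199 CPM) and MITF (30.1 to 44.2 CPM), whereas SOX10 was listed at 0 in all 8 libraries and TYR reached at most 0.0524 CPM. The pigment cell markers PMEL (0.19 to 0.943 CPM), MLANA (0.711 to 1.44 CPM) and DCT (0.0711 to 2.9 CPM) were low too. AXL made up most of each sum, so the sum says little about melanocyte differentiation. SOX10 overlaps POLR2F in the annotation, and reads shared by overlapping genes can go uncounted. Summed CPM of 6 fibroblast markers was 6.41 to 10.3 with serum and 7.96 to 10.4 without, with COL1A2 and COL3A1 at or below 0.164 CPM. Summed endothelial markers stayed at or below 1.87 CPM, the 4 epithelial markers, mostly KRT14, summed to 11.7 to 21.7 CPM, and the leukocyte marker PTPRC was at or below 0.0514 CPM. Of these markers PDGFRA rose without serum by a log2 change of 1.77 (edgeR adjusted p = 0.00767) and S100A1 by 0.85 (adjusted p = 0.00605), MITF fell by 0.28 (adjusted p = 0.0496), and none of the other markers passed in that fit. With line as a block, described below for the matrix genes, AXL (−0.35, adjusted p = 0.000588) and DCT (−0.89, adjusted p = 0.0251) also fell and S100B (0.26, adjusted p = 0.0469) and the fibroblast marker DCN (0.91, adjusted p = 0.0125) also rose. GC correction, described below too, ended the unblocked call of MITF (−0.23, adjusted p = 0.0768). Added to the block it ended that of S100B (0.09, adjusted p = 0.478), whereas NGFR (−0.30, adjusted p = 0.00452) and KRT14 (−0.47, adjusted p = 0.000349) then fell. The part of these shifts in the changes of the matrix genes was not tested. In bulk RNA, fewer cells expressing a gene and less RNA per cell cannot be told apart.

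The matrix genes spanned more than 3 orders of magnitude in level per length, from THBS1, among the most abundant transcripts of these cells, to VCAN and THBS2, which lay far below the median of tested genes. As the mean over 8 libraries in RPKM (CPM divided by the length of the merged exons in kilobases), THBS1 reached 566 ± 244 (SD) and ranked 37 of the 17425 tested genes with a known length. SPARC followed with 235 ± 49.9 RPKM and TNC with 108 ± 20.7 RPKM. NID1 (32.8 ± 3.66 RPKM), AGRN (23.4 ± 4.70 RPKM) and HSPG2 (7.96 ± 1.07 RPKM) formed a middle range. EFEMP1 (3.16 ± 2.39 RPKM) and FBN1 (2.88 ± 0.891 RPKM) lay beside the median of all tested genes, 2.86 RPKM, and THBS2 (0.489 ± 0.239 RPKM) and VCAN (0.315 ± 0.0808 RPKM) lay below it. Ranges over the 8 libraries overlapped between the neighbours THBS1 and SPARC, NID1 and AGRN, HSPG2 and EFEMP1, EFEMP1 and FBN1, and THBS2 and VCAN, although within a library THBS1 exceeded SPARC, HSPG2 exceeded EFEMP1 and THBS2 exceeded VCAN in 7 of 8, and NID1 exceeded AGRN in 8 of 8. EFEMP1 exceeded FBN1 in 3 of 8 libraries. With the longest transcript as the length, AGRN (33.7 RPKM) stood above NID1 (32.9 RPKM) and FBN1 (4.59 RPKM) above EFEMP1 (4.14 RPKM). The other neighbours, SPARC and TNC, TNC and NID1, AGRN and HSPG2, and FBN1 and THBS2, did not overlap in any library.

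**Figure D1:**
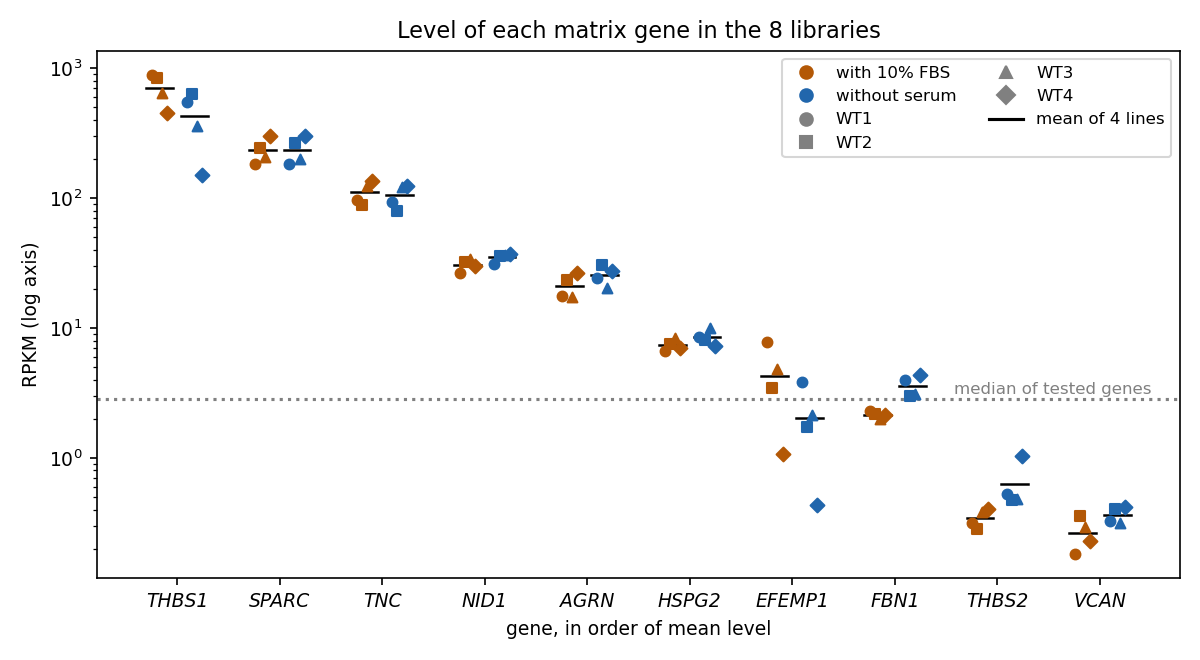
Level of each of the 10 matrix genes in RPKM (vertical, log axis) in the 4 libraries with serum (orange) and the 4 without (blue), with symbols for lines and bars for the mean of 4 lines. THBS1 spans 151 to 890 RPKM, EFEMP1 0.431 to 7.81 RPKM, and VCAN stays at or below 0.419 RPKM.

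To ask how these genes responded to serum withdrawal, counts were compared across all genes with edgeR's quasi-likelihood test. FBN1 and THBS2 rose without serum and none of the other 8 passed an adjusted p of 0.05, so 2 of 10 passed where 25.1% of all 17671 tested genes did (11.1% higher, 14% lower without serum). The 4434 genes split into 1957 higher and 2477 lower, a split that became 2508 and 1843 with upper-quartile scaling and 1287 and 3836 with a correction for GC content. When the line was added to the model as a block, so that each line was compared with itself, 7 of the 10 genes passed against 45.7% of all genes, 6 higher (23.2% of all genes) and 1 lower (22.4%). With the block and the GC correction together, again 7 passed against 47.3% of all genes, but 3 were higher (16.4% of all genes) and 4 lower (30.8%). THBS2, FBN1, VCAN, NID1, HSPG2 and AGRN were higher without serum in all 4 lines (28.8% of all genes) and THBS1, TNC and EFEMP1 were lower in all 4 (26.6%), while SPARC split evenly. With 10 genes chosen by name, these shares were not tested against their backgrounds. WT1 and WT2, whose serum libraries held the most multimapped reads, showed the 2 smallest decreases of THBS1 and EFEMP1 but the 2 largest increases of AGRN, and the part of multimapped reads in these changes was not tested. The median log2 change of the 10 genes was 0.20, or 0.20 with the block, beside 0.033 and 0.035 over all genes, and it was −0.11 beside −0.06 with block and GC correction. Labels do not say whether the 2 conditions of a line were grown as parallel cultures on the same day, and p-values measure the spread between these libraries only.

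**Figure D2:**
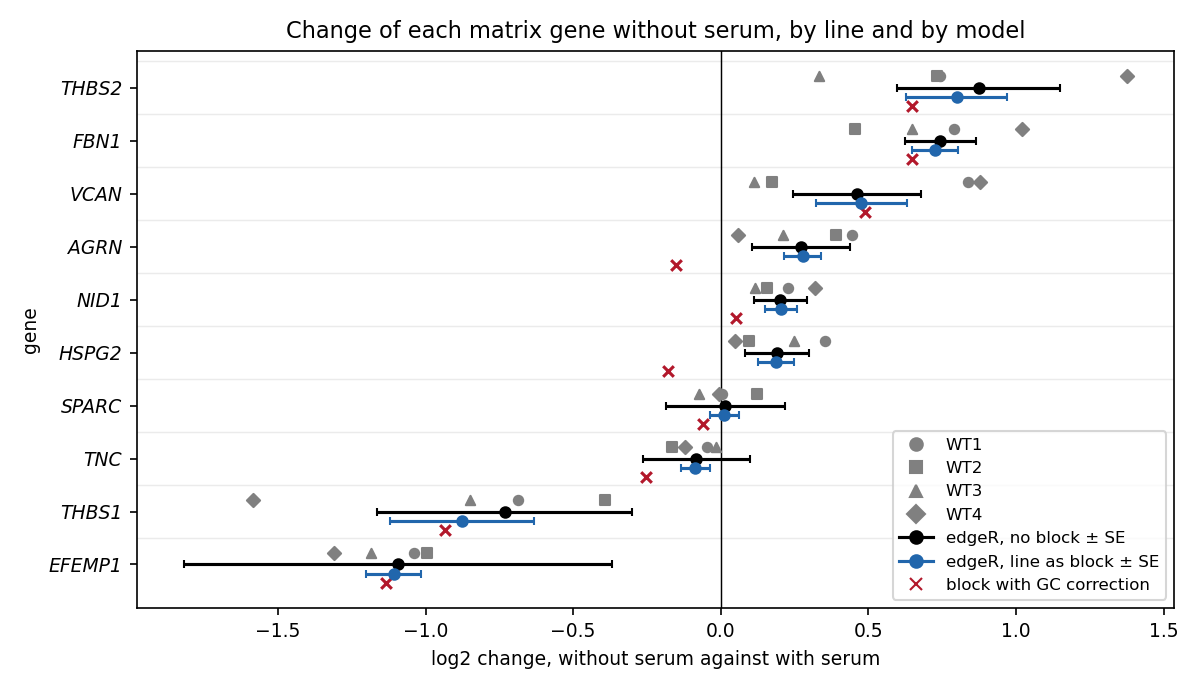
Log2 change without serum for each gene: grey symbols show each line's own change, black circles the edgeR estimate without a block and blue circles the estimate with line as block (bars, SE), and red crosses the blocked estimate after GC correction. FBN1 and THBS2 lie right of 0 in every form, EFEMP1 and THBS1 left of 0, and AGRN and HSPG2 change side with GC correction.

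THBS1 (ENSG00000137801, chr15:39581079-39599466 in GRCh38) encodes thrombospondin-1, a trimeric glycoprotein that binds CD36, CD47 and integrins and activates latent TGF-beta. With serum it measured 8150, 7658, 5906 and 4152 CPM in WT1 to WT4, and without serum 5067, 5838, 3279 and 1385 CPM. Every line was lower without serum, by 0.69, 0.39, 0.85 and 1.58 on the log2 scale, yet the groups overlapped because WT4 with serum lay below WT1 and WT2 without. The edgeR log2 change was −0.73 (SE 0.43, 95% interval −1.74 to 0.28, adjusted p = 0.259), and with the line as block −0.88 (SE 0.24, adjusted p = 0.0644). A lower level in 4 of 4 lines thus did not pass the threshold, and the difference in size between WT2 and WT4 was not tested. Leaving out a library or line moved the unblocked change between −0.99 and −0.45, the latter without the serum-free WT4 library. THBS1 alone took 0.776% of all gene counts in the serum library of WT1 and 0.146% in the serum-free library of WT4.

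THBS2 (ENSG00000186340, chr6:169215785-169253846) encodes the related thrombospondin-2, an antiangiogenic member of the family that limits matrix metalloprotease activity. It measured 2.28, 2.05, 2.73 and 2.89 CPM with serum and 3.82, 3.42, 3.44 and 7.50 CPM without, from 82 to 422 reads. All serum-free libraries lay above all serum libraries, as 12.6% of all genes did, and WT4 without serum stood far above the other 3. THBS2 rose by a log2 change of 0.87 (SE 0.28, edgeR adjusted p = 0.0441) and of 0.80 with the block (SE 0.17, adjusted p = 0.0015). The unblocked call was lost in 8 of 12 fits without 1 library or line, from the serum library of WT1 (0.83, adjusted p = 0.107) or WT2 (0.79, adjusted p = 0.112) to the serum-free library of WT4, the one that moved the change most (0.52, adjusted p = 0.0886). It was also lost with limma voom (0.83, adjusted p = 0.0579), with GC correction (0.72, adjusted p = 0.0722) and without the serum libraries of WT1 and WT2 together (0.69, adjusted p = 0.275), which leaves the lines unmatched. With the block it was kept after leaving out any line (log2 change 0.61 to 0.94).

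THBS1 and THBS2 are paralogues at opposite ends of the level range, with log2 changes on opposite sides of 0. Their 250 bases upstream of the RefSeq start (GRCh38.p14, 5′ to 3′ on the gene's strand) are shown so that their promoter letters can be compared. Capitals mark matches to 4 motifs searched on both strands, and no matches overlap one another in these 2 sequences. The GC box was searched for as GGGCGG. For the transcription factor family TEAD the letters were GGAATG. SMAD proteins were represented by the short element CAGAC. The TATA box was spelled TATAAA.
THBS1, chr15:39580829-39581078, plus strand: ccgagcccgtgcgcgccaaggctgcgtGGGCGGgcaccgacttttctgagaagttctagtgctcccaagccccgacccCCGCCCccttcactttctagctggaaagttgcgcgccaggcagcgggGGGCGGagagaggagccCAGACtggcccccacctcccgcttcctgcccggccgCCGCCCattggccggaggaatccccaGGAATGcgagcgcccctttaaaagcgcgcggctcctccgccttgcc
THBS2, chr6:169253847-169254096, minus strand: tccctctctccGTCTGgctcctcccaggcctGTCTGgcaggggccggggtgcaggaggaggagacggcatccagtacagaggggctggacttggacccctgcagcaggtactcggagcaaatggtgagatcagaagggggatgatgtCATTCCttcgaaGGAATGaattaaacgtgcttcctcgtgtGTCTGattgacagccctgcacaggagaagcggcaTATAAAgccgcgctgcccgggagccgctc
THBS1 held 4 GC boxes, 1 SMAD match and 1 TEAD match that ended 41 bases before the start. THBS2 held no GC box, 3 SMAD matches, a TATA box that began 29 bases before the start, and a pair of TEAD matches on opposite strands. Among 35116 RefSeq promoters of the same length, 42.6% held the GC box, 38% the SMAD letters, 11.9% the TEAD letters and 10.7% the TATA box. Of the 8 matrix genes with a promoter in the table (EFEMP1 and AGRN were not in it), TEAD letters occurred in SPARC, THBS1, THBS2 and FBN1, and GC boxes in TNC, THBS1, VCAN, NID1 and HSPG2. None of the 8 held the AP-1 motif TGANTCA, present in 6.57% of promoters, in this window. The FOXO motif GTAAACA (2.98% of promoters) and the CArG box (1.16%) were also not found there. These matches are letters in a fixed window, and binding was not measured.

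SPARC (ENSG00000113140, chr5:151661096-151686915), a collagen- and calcium-binding matricellular protein, was the second most abundant of the 10 and had the change nearest 0. It measured 841.5, 1121, 968 and 1401 CPM with serum and 845, 1221, 920 and 1396 CPM without, in the order WT1 to WT4. The order of the lines, WT4 above WT2, WT3 and WT1, was the same in both conditions, and the groups overlapped almost completely. Its log2 change was 0.02 (SE 0.20) without the block and 0.01 with it (SE 0.05, edgeR adjusted p = 0.866). The blocked 95% interval of −0.09 to 0.12 covers the spread between libraries under 1 scaling and does not exclude a common change. The sign of the SPARC change turned with GC correction and when some single libraries were left out.

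TNC (ENSG00000041982, chr9:115019575-115118157) encodes tenascin-C, a hexameric glycoprotein of wounds and tumor stroma that modulates adhesion to fibronectin. It measured 920, 855, 1187 and 1296 CPM with serum and 892, 763, 1174 and 1193 CPM without. Each line was slightly lower without serum, and WT3 and WT4 stood above WT1 and WT2 in both conditions. The log2 change was −0.08 (SE 0.18, edgeR adjusted p = 0.777), or −0.09 with the block (SE 0.05, adjusted p = 0.166). After GC correction with the block it was −0.25 (adjusted p = 0.000198).

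FBN1 (ENSG00000166147, chr15:48408313-48645709) encodes fibrillin-1, the backbone of microfibrils and the gene mutated in Marfan syndrome. With serum it measured 42.6, 40.5, 36.8 and 39.6 CPM, and without serum 73.6, 55.6, 57.6 and 80.3 CPM. The serum libraries lay close together, the serum-free libraries all lay above them, and WT1 and WT4 were the highest of these. FBN1 rose by a log2 change of 0.74 (SE 0.12, edgeR adjusted p = 0.00308), or 0.73 with the block (SE 0.08, adjusted p = 5.6e-06). It passed in all 26 alternative fits, with log2 changes of 0.63 to 0.83, including those without the serum libraries of WT1 and WT2 (0.80, adjusted p = 0.036).

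EFEMP1 (ENSG00000115380, chr2:55865967-55923782) encodes fibulin-3, a small secreted glycoprotein that binds elastic fibre and basement membrane proteins. It measured 30.9, 13.7, 19.2 and 4.23 CPM with serum and 15.1, 6.87, 8.45 and 1.71 CPM without. Each line was lower without serum by a similar amount, 1.04, 0.99, 1.19 and 1.31 on the log2 scale, whereas the lines themselves differed by more than the conditions did. The unblocked log2 change was imprecise, −1.09 (SE 0.73, edgeR adjusted p = 0.313), and with each line compared with itself EFEMP1 fell by 1.11 on the log2 scale (SE 0.09, adjusted p = 6.6e-07). The blocked call was kept with GC correction (−1.13, adjusted p = 1.85e-07) and after leaving out any line. Over the 12 fits without 1 library or line, the unblocked change ran from −0.64, without the serum library of WT1, to −1.59, without the serum-free library of WT1. It was −0.57 without the serum libraries of WT1 and WT2 together.

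**Figure D3:**
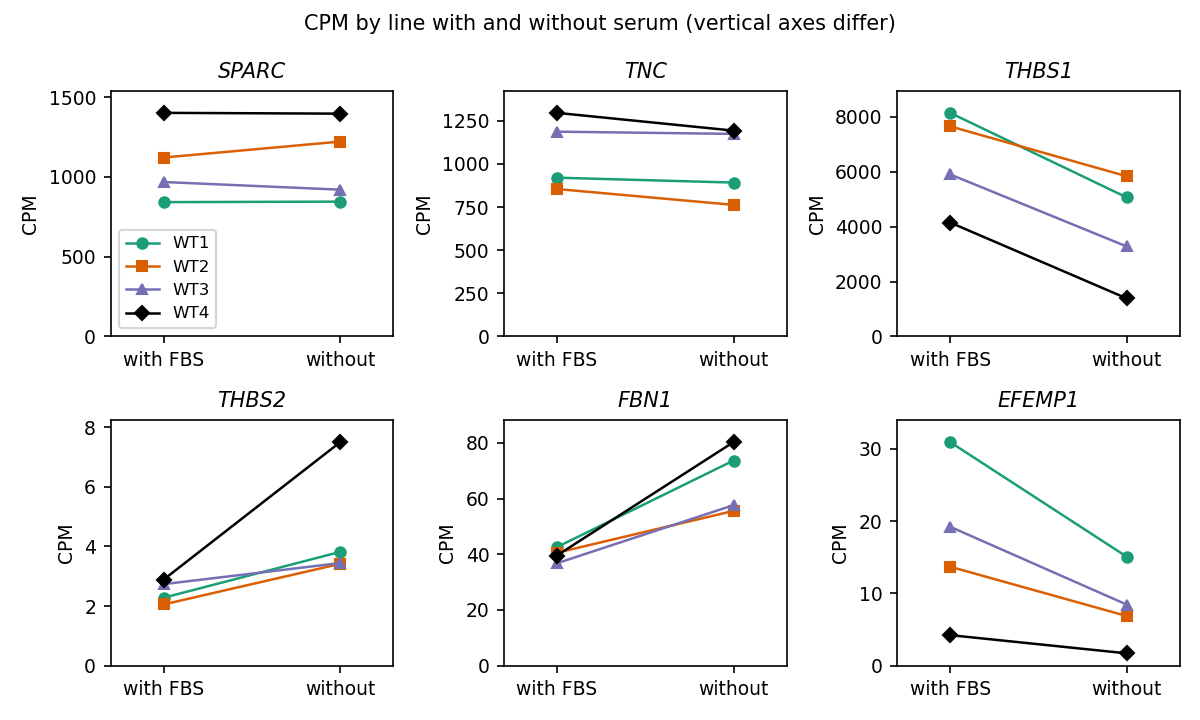
CPM (vertical, linear axes that start at 0 and differ between panels) of SPARC, TNC, THBS1, THBS2, FBN1 and EFEMP1 with and without serum, 1 line per A375 clone. EFEMP1 lines all run downward, from 30.9, 13.7, 19.2 and 4.23 CPM, SPARC lines run nearly flat in their own order, and THBS2 in WT4 climbs to 7.50 CPM.

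VCAN (ENSG00000038427, chr5:83471744-83582302) encodes versican, a large chondroitin sulfate proteoglycan that binds hyaluronan. It measured 2.68, 5.22, 4.30 and 3.35 CPM with serum and 4.79, 5.89, 4.65 and 6.15 CPM without. All lines were higher without serum, WT1 and WT4 by 0.84 and 0.88 on the log2 scale and WT2 and WT3 by 0.17 and 0.11, and the groups overlapped. The log2 change was 0.46 (SE 0.22, edgeR adjusted p = 0.145). With the block VCAN rose by 0.48 (SE 0.16, adjusted p = 0.0211), a call lost without WT1 (0.37, adjusted p = 0.117) or without WT4 (0.35, adjusted p = 0.0637).

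NID1 (ENSG00000116962, chr1:235975830-236065090), encoding nidogen-1, which links laminin to type IV collagen, measured 154, 186, 196 and 174 CPM with serum and 181, 207, 212 and 216 CPM without. All lines were higher without serum, by 0.12 to 0.32 on the log2 scale, and only WT1 without serum fell within the serum range. The log2 change was 0.20 (SE 0.09, edgeR adjusted p = 0.124), and with the block NID1 rose by 0.20 (SE 0.06, adjusted p = 0.0071). The blocked call was lost with GC correction (0.05, adjusted p = 0.367) and without WT1 (0.20, adjusted p = 0.0525).

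HSPG2 and AGRN encode perlecan and agrin, the main heparan sulfate proteoglycans of basement membranes, and agrin also organizes the neuromuscular junction. HSPG2 (ENSG00000142798, chr1:21822244-21937310) measured 121, 137, 153 and 127 CPM with serum and 155, 147, 181.5 and 132 CPM without. AGRN (ENSG00000188157, chr1:1020120-1056116) measured 191, 250.5, 187 and 283 CPM with serum and 260, 328, 217 and 295 CPM without. Both genes were higher without serum in every line with overlapping groups, and WT4 showed the smallest difference for each. The log2 change of HSPG2 was 0.19 (SE 0.11, edgeR adjusted p = 0.225), or 0.19 with the block (SE 0.06, adjusted p = 0.0212). The log2 change of AGRN was 0.27 (SE 0.17, edgeR adjusted p = 0.263), or 0.28 with the block (SE 0.06, adjusted p = 0.00271). Over the leave-outs the unblocked change of HSPG2 ran from 0.10, without the serum-free WT3 library, to 0.26, and that of AGRN from 0.17, without the serum-free WT2 library, to 0.39. The blocked call was lost for HSPG2 without WT1 (0.13, adjusted p = 0.199) or without WT3 (0.15, adjusted p = 0.166), and was kept for AGRN after leaving out any line.

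The direction for these basement membrane proteoglycans depended on the correction for GC content. Over 17425 genes, log2 change and the GC content of the longest transcript had a Spearman correlation of 0.358 across genes, which are not independent and share their libraries. AGRN transcripts are 67.9% GC and HSPG2 transcripts 64.5%, and the blocked median change of genes in the bin with the highest GC content (median 65.7%) was 0.33, above the values of both. After GC correction with the block, HSPG2 was at −0.18 (edgeR adjusted p = 0.00342) and AGRN at −0.15 (adjusted p = 0.00907), so both passed in the opposite direction. FBN1 (0.65), THBS2 (0.65), VCAN (0.49), EFEMP1 (−1.13) and THBS1 (−0.93), with GC contents of 42.5% to 51.5%, kept their side of 0 and their call or lack of one. SPARC (46.4% GC) moved from 0.01 to −0.06 without passing, NID1 (51.5%) lost its call and TNC (52.5%) gained one.

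**Figure D4:**
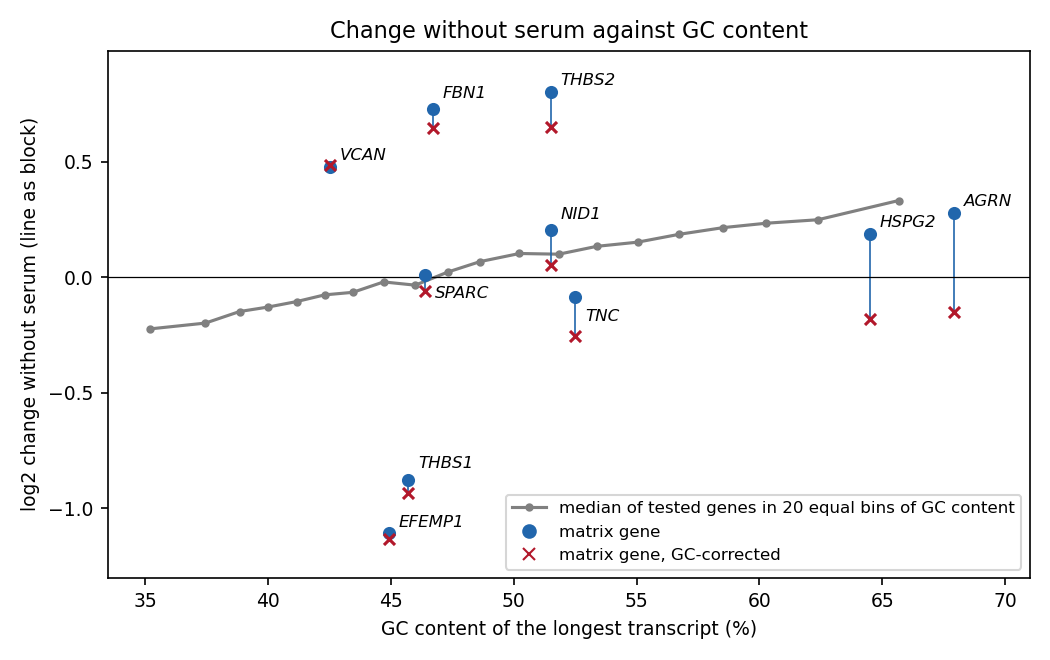
Blocked log2 change without serum (vertical) against the GC content of the longest transcript (horizontal, percent) for the 10 matrix genes before (blue circles) and after (red crosses) GC correction. The grey line, the median of all tested genes in 20 bins, climbs from −0.22 to 0.33, and AGRN and HSPG2 drop below 0 with the correction.

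Differences between the 4 lines were asked next, with an edgeR quasi-likelihood test of the line terms in a model that also held the serum condition, 2 libraries per line. Line differences passed for 6 of the 10 genes, EFEMP1, SPARC, TNC, AGRN, HSPG2 and THBS2, against 22.9% of all genes, and for 5 to 7 when a line was left out, against 15.6% to 18.6% of all genes. EFEMP1 differed most, with geometric means over both conditions of 21.6, 9.70, 12.8 and 2.69 CPM in WT1 to WT4, an 8.05-fold range (adjusted p = 2.25e-08). SPARC ranged 1.66-fold, from 843 CPM in WT1 to 1399 CPM in WT4 (adjusted p = 1.04e-05), and TNC 1.54-fold, from 807 CPM in WT2 to 1243 CPM in WT4 (adjusted p = 2.04e-05). AGRN ranged 1.44-fold, with WT2 and WT4 near 287 and 289 CPM and WT1 and WT3 at 223 and 201 CPM (adjusted p = 0.000924). HSPG2 ranged 1.29-fold (adjusted p = 0.0259), a call lost without WT3 (adjusted p = 0.649). THBS2 ranged 1.76-fold (adjusted p = 0.0414), a call lost without WT4 (adjusted p = 0.77) or without WT2 (adjusted p = 0.085). THBS1 ranged 2.79-fold, from 2398 CPM in WT4 to 6686 CPM in WT2, without passing (adjusted p = 0.163), although it passed with DESeq2 (adjusted p = 0.00272). NID1 did not pass (adjusted p = 0.0527) except with limma voom (0.038), DESeq2 (0.0328), upper-quartile scaling (0.046), no count filter (0.0181) or without WT4 (0.000462). FBN1 (adjusted p = 0.0982) passed with no count filter (0.0121) and without WT4 (0.0115). Compared with the mean of the other lines on the log2 scale, WT4 was lower in EFEMP1 (−2.37) and THBS1 (−1.26) and higher in THBS2 (0.69), SPARC (0.52), TNC (0.39) and AGRN (0.30). Because the identity of WT4 rests on its labels, these contrasts cannot be assigned to differences between clones.

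Over the 8 libraries, the gene whose log2 CPM was most alike to each matrix gene among 12219 candidates was listed as a description, with Pearson's r over 8 points that share lines and conditions. For THBS1 it was AXL (0.998), a receptor tyrosine kinase, for THBS2 the chondroitin sulfotransferase gene CHST11 (0.984), for AGRN the basement membrane collagen gene COL18A1 (0.985), and for HSPG2 the TGF-beta family transducer SMAD1 (0.966). EFEMP1 was paired with AP3M2 (0.987), TNC with PDE3A (0.978), FBN1 with DHX32 (0.978), NID1 with INPP5J (0.975), VCAN with HTT (0.972) and SPARC with NKIRAS2 (0.964). The highest of 12219 correlations over 8 points is high by selection, so these pairs do not show shared regulation.

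Genes that work with these proteins were read from the same fits in 7 lists, where counts of passing genes stand against 11.1% higher and 14% lower over all genes, or 23.2% and 22.4% with the block. With block and GC correction the shares over all genes were 16.4% higher and 30.8% lower, with a median of −0.06. Among 22 further matricellular genes 13 were tested, and 2 rose and none fell, or 6 rose and 2 fell with the block, and 4 and 2 with the GC correction added. THBS3, a further thrombospondin, rose from 5.30 ± 0.975 to 11.6 ± 0.838 CPM (SD, n = 4 libraries), a log2 change of 1.13 (edgeR adjusted p = 0.00159) that passed in all 26 alternatives. SPOCK2 also passed (1.18, adjusted p = 0.0461) but at 0.559 CPM without serum, and it lost the call in 18 of 25 alternatives. With the block, SPP1, encoding osteopontin, rose by 1.25 (adjusted p = 2.22e-06) and TGFBI, a TGF-beta-induced adhesion protein, by 0.48 (adjusted p = 5.9e-06). SMOC1 fell by 1.18 with the block (adjusted p = 8.92e-06) and CCN1 by 1.02 (adjusted p = 0.00281).

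Among 18 further elastic fibre and microfibril genes 13 were tested, 3 rose and none fell, or 10 rose and none fell with the block. Their median log2 change was 0.51, or 0.64 with the block and 0.31 with block and GC correction, which left 5 higher and none lower. LTBP4, which anchors latent TGF-beta to fibrillin, rose by 0.77 (edgeR adjusted p = 0.00235), EFEMP2, encoding fibulin-4, by 0.66 (adjusted p = 0.011) and the elastic fibre glycoprotein gene EMILIN1 by 0.71 (adjusted p = 0.0321). GC correction took LTBP4 to 0.37 (adjusted p = 0.000677), EFEMP2 to 0.45 (adjusted p = 0.0527) and EMILIN1 to 0.31 (adjusted p = 0.0739), and LTBP4 and EMILIN1 transcripts are 66.6% and 67.5% GC. With the block, HMCN1 rose by 1.06 (adjusted p = 8.79e-08) and LTBP3 by 1.05 (adjusted p = 7.87e-07), or 0.63 with the GC correction added.

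Of 22 hyaluronan-binding and small leucine-rich proteoglycan genes 14 were tested, and PRELP alone passed (0.88, edgeR adjusted p = 0.0491), in 14 of 26 alternatives too. With the block 9 rose and 1 fell, and with the GC correction added 5 rose and none fell. BGN, encoding biglycan, rose by 0.80 with the block (adjusted p = 5.92e-06), or 0.48 with the GC correction added. The hyaluronan synthase gene HAS2 rose by 1.66 with the block (adjusted p = 0.000173) from 0.860 ± 1.03 CPM with serum (SD, n = 4 libraries), and its unblocked change ran from 0.14, without the serum-free WT4 library, to 3.34, without the serum library of WT4. Among 15 tested basement membrane and cell surface heparan sulfate proteoglycan genes, FREM2, which holds the epidermal basement membrane to the dermis, rose by 0.93 (adjusted p = 0.00453). With the block 5 of these rose, FREM1 included (0.66, adjusted p = 0.000694), and syndecan-1, SDC1, fell by 0.28 (adjusted p = 0.00392), or by 0.57 with the GC correction added (adjusted p = 7.01e-07). The median change of this list was 0.09, and −0.04 with block and GC correction, when 4 were higher and 3 lower.

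Cell surface receptors for matrix proteins, collagen receptors included, gave 4 higher genes and none lower of 13 tested. DDR1, a collagen receptor kinase, rose by 0.79 (edgeR adjusted p = 0.00112), the vitronectin receptor subunit ITGB5 by 0.51 (adjusted p = 0.00213), the endocytic thrombospondin receptor LRP1 by 0.62 (adjusted p = 0.00629) and ITGA9, whose integrin binds tenascin-C, by 1.50 (adjusted p = 0.0079). With the block 7 rose and 4 fell, with ITGB4 (1.85, adjusted p = 1.64e-08) and ITGB3 (1.21, adjusted p = 7.72e-09) the strongest by p. Those that fell were CD44 (−0.22, adjusted p = 0.0022), CD47 (−0.22, adjusted p = 0.00932), ITGB1 (−0.185, adjusted p = 0.0193) and DAG1 (−0.17, adjusted p = 0.0213). DDR1 and ITGB5 passed in all 26 alternatives, but GC correction reduced DDR1 to 0.48 and ITGB5 to 0.32, and it took LRP1 to 0.33 without passing (adjusted p = 0.104). With block and GC correction 8 receptor genes were higher and 3 lower.

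Glycosaminoglycan synthesis genes, 29 of 30 tested, gave 2 higher and 4 lower. With the block 9 were higher and 6 lower, and with the GC correction added 7 higher and 14 lower, with a median of −0.14. The xylose kinase gene FAM20B fell by 0.36 (edgeR adjusted p = 0.00737), and the heparan sulfate sulfotransferase genes HS6ST2 and HS2ST1 fell by 0.54 and 0.39 (adjusted p = 0.012 and 0.0137). CHST11, a chondroitin 4-sulfotransferase gene, rose by 0.76 (adjusted p = 0.0292), losing its call in 9 of 26 alternatives. With the block, CSGALNACT1, which starts chondroitin chains, rose by 1.09 (adjusted p = 1.55e-06) and the heparan sulfate polymerase gene EXT1 fell by 0.28 (adjusted p = 0.000715). Proteases that can cleave the matrix proteins gave 2 higher and none lower of 12 tested, or 6 and 2 with the block and 4 and 2 with the GC correction added. MMP14, a membrane-bound metalloprotease, rose by 0.57 (adjusted p = 0.00498), or 0.31 with GC correction (adjusted p = 0.0121), and the procollagen C-proteinase gene BMP1 by 0.36 (adjusted p = 0.033), the latter not with GC correction (0.06, adjusted p = 0.663). With the block the versican-cleaving ADAMTS9 rose by 1.05 (adjusted p = 5.07e-06) and the gelatinase gene MMP2 by 0.51 (adjusted p = 5.12e-05), or 0.30 with the GC correction added.

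**Figure D5:**
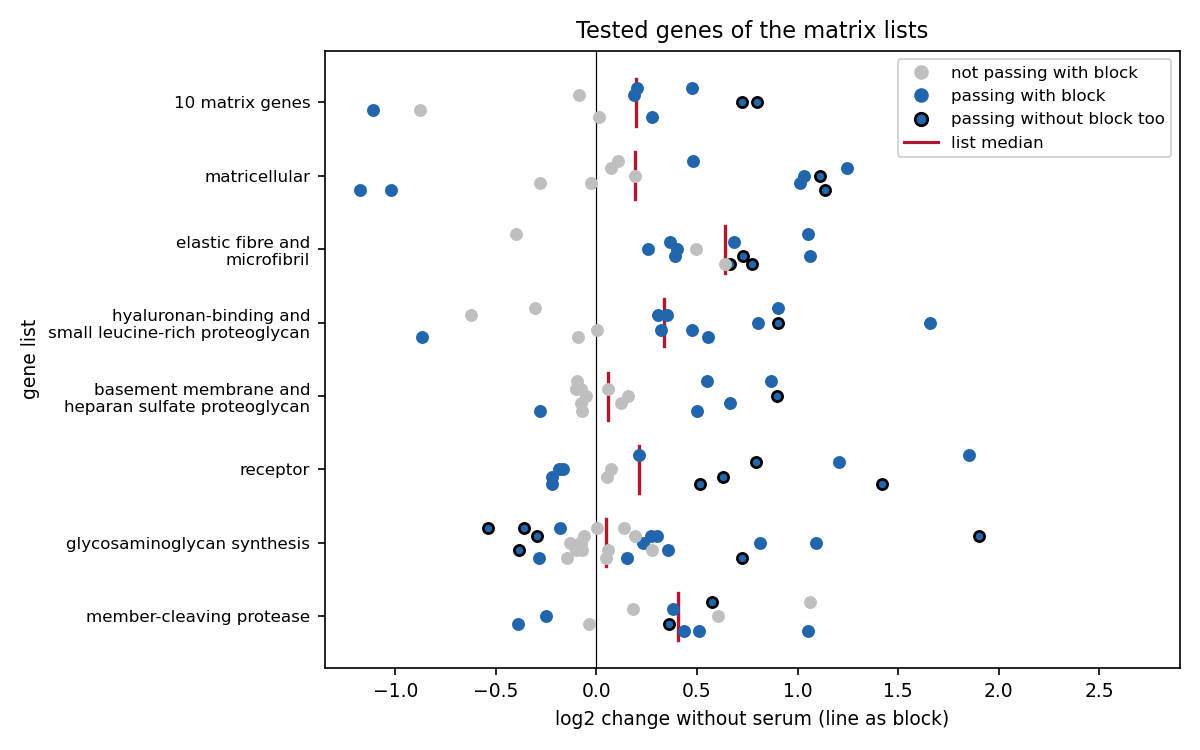
Blocked log2 change without serum (horizontal) of every tested gene of the 10 matrix genes and the 7 related lists (rows), with vertical offsets only to separate points. Blue points pass with the block, black rims mark those that also pass without it, and red bars give list medians, 0.64 for elastic fibre and microfibril genes and 0.05 for glycosaminoglycan synthesis genes.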

How the data were processed

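RNA-seq counts per gene of 8 libraries (1 per A375 line and condition) were used as deposited by the authors, 1 table per library. Per the labels, ribosomal RNA was depleted before paired-end sequencing, and the submitters' processing notes list cutadapt, TopHat2 2.0.11, HTSeq and GRCh38. The annotation release, counting mode and strand setting are not given in the sources used here, so reads from overlapping or antisense genes, which RefSeq lists at 8 of the 10 loci (not NID1 and AGRN), could not be separated. No reads were listed as outside features. Deposited tables of the WT4 line carry another line name, and its identity rests on the labels.

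After filterByExpr removed genes with low counts, libraries were normalized by TMM and compared in edgeR 4.0.16 (R 4.3.3, glmQLFit with robust dispersions, glmQLFTest, two-sided) without a block, since the study's RNA-seq methods name none (its cell culture assays were in general tested as pairs), with Benjamini-Hochberg adjustment over 17671 genes and a threshold of 0.05. Line as a block is the paired alternative. Same-numbered libraries are the same clonal line, and their deviations from the condition means correlated at 0.403, 0.591, 0.456 and 0.604 for WT1 to WT4, against at most 0.126 between different lines. RPKM used merged exons, and GC content the longest transcript, of a GENCODE annotation of another build than the counts (98.6% of tested genes matched). GC correction fitted each library's deviation on GC content with a natural spline of 5 degrees of freedom and used it as an offset. DESeq2 1.42.0 and limma voom 3.58.1, other scalings, filters and left-out libraries were alternatives. On simulated counts for the serum comparison, with 193 of 17070 tested genes changed by 1 on the log2 scale, 56.5% were recovered without the block and 85% with it, with 0 and 8 false calls. With lines simulated alike, 5 of 16934 genes were called different between lines. With the fitted line differences kept, 6829 were, where the real libraries gave 4055. These counts were drawn from the fit with line as block, with no serum change in the other genes. Every line thus responded alike and no change followed GC content, so these rates may not hold for the real libraries.

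The 10 genes and the lists were chosen with earlier results of these data known. The rule named all 10, up to 4 genes per list with the smallest p among those that passed, up to 2 more by the blocked fit, and for each gene its closest match among genes averaging 100 counts or more. Matricellular and receptor genes that fell with the block were named in addition. No 2 libraries held identical counts. Intervals are 95% and cover the spread between libraries.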

Additional observations from a re-analysis of the deposited data

Results flagged for a closer look

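Of 20 sets of 4 values searched (10 genes in 2 conditions), 1 held a sample far from the others. THBS2 in the serum-free WT4 library measured 7.50 CPM against 3.42 to 3.82 CPM in the other 3 serum-free libraries, with a gap of 0.902 of the group's range, above Dixon's critical value for 4 samples. Chance gives about 1 such set in 20 independent sets, whereas these sets share their libraries. The cause of this value was not tested. THBS2 was called with the line as block whether or not WT4 was left out.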

How the results depend on the processing

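FBN1 passed in all 26 alternatives and THBS2 in 15. With the replicate block 7 of the 10 genes were called, 7 with replicate block and GC correction, 1 with GC correction alone, 1 with limma voom and 1 without the serum libraries of WT1 and WT2, against 2 in the main comparison. Leaving out a library or line gave 1 to 2, and 4 to 8 with the replicate block. That last set, and the setting without the serum libraries of WT1 and WT2, were chosen after seeing the data. Genes called over all genes, 4434 of 17671, became 8067 with the replicate block and 8236 of 17425 with GC correction added. They were 5123 of 17425 with GC correction alone and 4691 of 17671 with limma voom. Without the serum libraries of WT1 and WT2 they were 1098. The leave-outs gave 1589 (without WT1) to 6128 (without the serum library of WT4), and with the block 6185 (without WT1) to 8938 (without WT4). The direction reversed for SPARC with GC correction (−0.067), with block and GC correction (−0.061), with the block without WT2 (−0.025) and without the serum libraries of WT1 and WT2 (−0.117), within −0.124 to 0.164 over the leave-outs. HSPG2 (−0.179 with GC correction, −0.18 with the block too) and AGRN (−0.145 and −0.15) reversed as well, and TNC ranged from −0.176 to 0.03 over the leave-outs. RLE and upper-quartile scaling, DESeq2 and the count filters kept 2 calls and every direction of the 10 genes. THBS1 passed only with the block without WT2 (−1.04, adjusted p = 0.0343). Line differences were called for 5 to 8 genes, where 15.3% to 25.2% of all genes were, and 6 to 8 genes lay above the median level, in every alternative run. Among the genes of related lists that the rule named, FREM2, LRP1, MMP14, FAM20B, ITGA9, EFEMP2, HS6ST2 and HS2ST1 each lost their call in 1 to 4 of 26 alternatives, CHST11 in 9, EMILIN1 and BMP1 in 11 (8 of them leave-outs) and PRELP in 12, and none reversed. The causes were not tested. THBS2 and VCAN rest on 82 to 450 reads a library, which limits their precision.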
